A study of Mus musculus with 12 samples.

Results

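RNA levels of 10 genes that mark the naive state of mouse embryonic stem (mES) cells outside the core regulators were followed across doses of dTAG13, a small molecule that degrades tagged BRG1, the ATPase of the mSWI/SNF chromatin remodellers. The genes were Zfp42, Dppa3, Dppa5a, Prdm14, Nr0b1, Nr5a2, Tbx3, Tcl1, Fgf4 and Tfcp2l1, taken by symbol from the 24421 genes of the counts table, and all 10 were found and passed the filter on low values that left 11378 genes to test. The cells were of strain B6, from blastocysts of C57BL/6J mice, were grown in 2i+LIF medium, which contains serum, LIF and inhibitors of MEK and GSK3, and carried a Brg1 dTag knock in that was also present in the control. They received 0.3, 1, 3, 10 or 100 nM dTAG13 for 24 h, or none (0 nM), and 2 libraries were sequenced per condition, 12 in all. To make the tagged line, colonies grown from single cells were picked, so all libraries may be samples of 1 clone. The labels do not name the clone. The question was how far RNA levels follow a graded loss of BRG1.

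Naive mES cells correspond to the epiblast of the preimplantation embryo and are held in that state by LIF-STAT3 signalling and by inhibition of MEK and GSK3. Around the core factors OCT4, SOX2 and NANOG lies a wider set of genes that are high in naive cells. Many of them, but not all, are shut down when cells move towards the formative and primed states. The set includes transcription factors that help to hold the state (Tfcp2l1, Tbx3, Nr5a2, Nr0b1, Prdm14), the reporter gene Zfp42, signalling genes (Fgf4, Tcl1) and genes named for their developmental pattern (Dppa5a, Dppa3).

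The libraries held 4663484 to 6375582 counts each (median 5956670). The 6 markers of undifferentiated mES cells were present in every library, with a summed level of 1147 to 1177 RPKM (counts scaled to exon length and library size) at 0 nM and 1168 to 1214 RPKM at 100 nM. Single markers moved in both directions, such as Pou5f1 (569 to 502 RPKM) and Nanog (228 to 326 RPKM). Summed levels of other cell types in single libraries were 23.1 to 29.3 RPKM for 8 trophectoderm genes, 3.63 to 6.56 RPKM for 8 primitive endoderm genes, 2.36 to 5.05 RPKM for 8 genes of the 2-cell-like state, of which Gm4340 was at 0 in every library, and 0.703 to 2.64 RPKM for 6 fibroblast genes. The primitive endoderm sum was 6.40 and 6.56 RPKM at 0 nM and 4.63 and 4.95 RPKM at 100 nM, where Lama1 went from 4.43 to 2.11 RPKM. In the 2-cell-like list, Dux went from 0.166 to 1.25 RPKM and Tcstv1 from 1.05 to 0.0924 RPKM. The summed level of 9 formative and primed genes was higher with dTAG13, at 65.3 and 67.7 RPKM in the 0 nM libraries and 85.9 and 87.3 RPKM at 100 nM. Most of this level was Dnmt3b, which went from 39.4 to 49.8 RPKM, while Otx2, Pou3f1 and Sox3 stayed low. The part of this sum in the results was not tested, and in bulk RNA fewer naive cells and less RNA per cell cannot be told apart. By their descriptions, the 0, 1, 10 and 100 nM libraries belong to one run of numbers and the 0.3 and 3 nM ones to a separate run, so the 0.3 and 3 nM libraries have no control within their own run.

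At 100 nM, the 3 genes with the deepest loss were Tcl1, which was left with 12.4% of its 0 nM level, Tbx3 with 58.5% and Tfcp2l1 with 64.0%, whereas Nr5a2 rose to 164.1%. Dppa5a, Fgf4 and Nr0b1 fell by less than 1.5-fold, and Zfp42, Dppa3 and Prdm14 did not pass the test. Here "fell" and "rose" mean an adjusted p under 0.05 (edgeR's quasi-likelihood test, Benjamini-Hochberg adjustment over the 11378 genes), and a differentially expressed gene (DEG) also differed by more than 1.5-fold. Of the 10 genes, 3 were thus lower and 1 higher as DEGs, against 6.83% and 4.37% of all genes tested. By adjusted p alone, 6 were lower and 1 higher, against 13.3% and 10.1%. The genome-wide split was 777 lower to 497 higher. It was 957 to 383 when the normalization factors were taken over all genes, and 665 to 575 without normalization factors. The median log2 fold change of the 10 genes was -0.38, beside 0 for all genes. The 10 genes were chosen with earlier results of these data known, and the study had picked Tbx3 and Tcl1 from these libraries. These counts and this median are thus a description and not a test of the set.

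**Figure D1:**
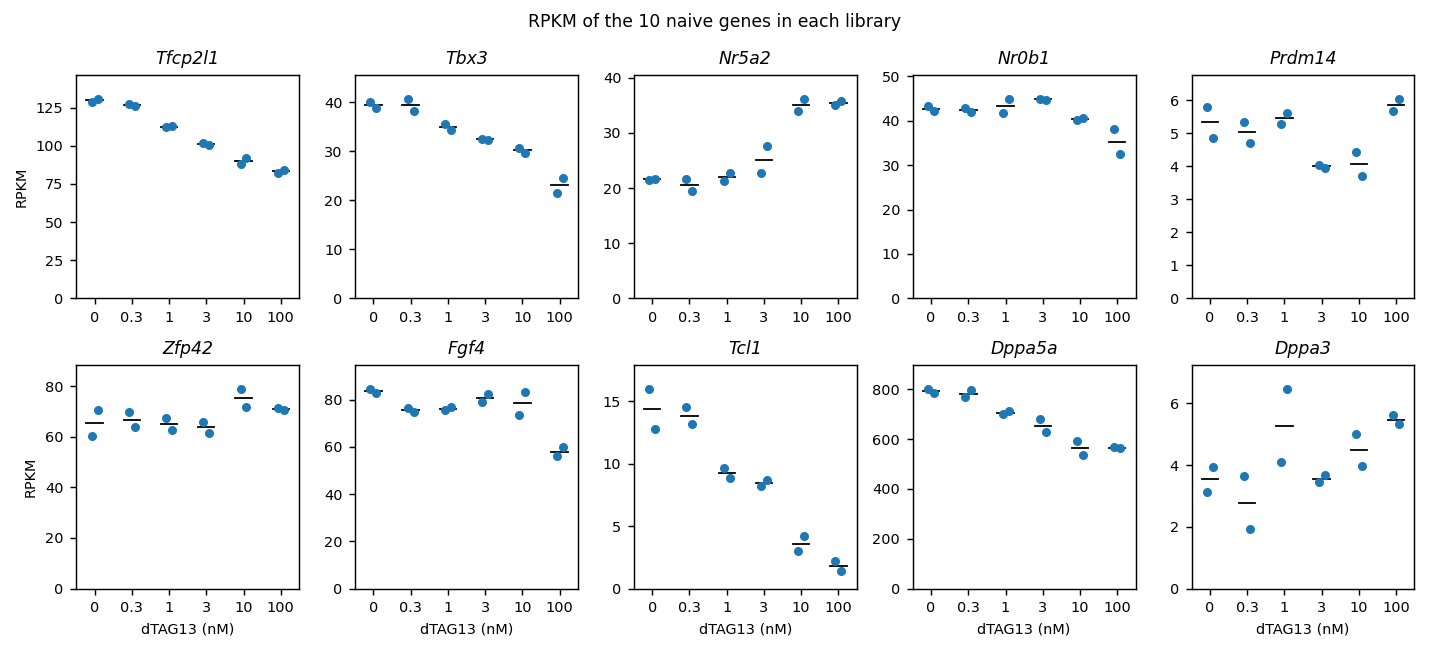
RPKM (y axis, from 0, its own scale per gene) of the 10 naive genes against dTAG13 dose (x axis, nM, evenly spaced), with 1 point per library and a line at the mean of the 2 libraries. Tcl1, Tfcp2l1 and Tbx3 step down with dose, and Dppa5a steps down to 10 nM and is level from there to 100 nM. Fgf4 drops at 100 nM, and Nr5a2 steps up at 10 nM.

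Promoters of 3 of the 4 DEGs at 100 nM, Tcl1, Tfcp2l1 and Nr5a2 but not Tbx3, are shown because these genes moved in opposite directions. RefSeq windows on GRCm38.p6 were found for 6 of the 10 genes (7 windows), and those shown, with 2 starts for Nr5a2, were taken as the 250 bases before the start, 5′ to 3′ on the gene's strand. They lie at chr12:105222738-105222987 (minus strand) for Tcl1, at chr1:118627695-118627944 (plus strand) for Tfcp2l1, and at chr1:136960449-136960698 and chr1:136953631-136953880 (minus strand) for the upstream and downstream start of Nr5a2. Capitals mark matches on either strand to 6 motifs: TATAAA (the TATA box), CCAAT (its own name as a box), GGGCGG (the GC box), AAGGTCA (bound by NR5A2 and ESRRB), ATGCAAAT (the octamer bound by OCT4) and TTCNNNGAA (bound by STAT factors).
Tcl1: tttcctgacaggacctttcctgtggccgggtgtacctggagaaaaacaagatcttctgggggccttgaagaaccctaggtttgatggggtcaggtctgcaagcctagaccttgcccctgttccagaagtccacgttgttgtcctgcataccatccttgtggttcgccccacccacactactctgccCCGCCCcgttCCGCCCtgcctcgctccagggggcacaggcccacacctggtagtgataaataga
Tfcp2l1: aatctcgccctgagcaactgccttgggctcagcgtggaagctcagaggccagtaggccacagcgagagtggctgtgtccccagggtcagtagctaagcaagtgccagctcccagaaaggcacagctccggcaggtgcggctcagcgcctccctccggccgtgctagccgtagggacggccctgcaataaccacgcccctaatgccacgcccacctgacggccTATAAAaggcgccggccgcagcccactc
Nr5a2 upstream start: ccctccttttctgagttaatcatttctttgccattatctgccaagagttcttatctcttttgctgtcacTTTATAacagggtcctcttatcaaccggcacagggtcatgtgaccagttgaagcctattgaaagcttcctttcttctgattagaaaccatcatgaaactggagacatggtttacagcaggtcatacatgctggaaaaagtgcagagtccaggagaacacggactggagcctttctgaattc
Nr5a2 downstream start: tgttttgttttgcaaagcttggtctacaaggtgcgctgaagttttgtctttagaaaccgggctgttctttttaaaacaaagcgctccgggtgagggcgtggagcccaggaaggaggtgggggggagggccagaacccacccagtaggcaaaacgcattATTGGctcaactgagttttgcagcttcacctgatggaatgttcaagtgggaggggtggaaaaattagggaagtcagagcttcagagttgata

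Tcl1 had 2 GC boxes on the opposite strand, 64 and 54 bases before its start, in GC-rich sequence (57.6% GC). The Tfcp2l1 window (65.2% GC) had a TATA box 28 bases before the start. The upstream window of Nr5a2 (43.2% GC) had a TATA-box match 181 bases before the start on the opposite strand, and the downstream one (49.6% GC) had a CCAAT box on the opposite strand. The median of all 32851 windows was 52.4% GC. Of these windows, 12.4% held the TATA box, 33.8% the CCAAT box, 32.7% the GC box, 4.08% the NR5A2 and ESRRB motif, 1.6% the octamer and 7.02% the STAT motif. Of the other genes with a window, Nr0b1 had a TATA box 32 bases before its start. Fgf4 had 2 GC boxes and, on the opposite strand, a CCAAT box. Zfp42 had 2 GC boxes, a CCAAT box and an octamer, all on the opposite strand. None of the 3 printed genes had the NR5A2 and ESRRB motif, the octamer or the STAT motif in these windows.

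Without dTAG13, the levels spanned from 793 ± 12.9 RPKM (SD, n = 2, as for every mean below) for Dppa5a to 3.54 ± 0.583 RPKM for Dppa3. Between them came Tfcp2l1 (130 ± 1.39 RPKM), Fgf4 (83.7 ± 1.29 RPKM), Zfp42 (65.5 ± 7.09 RPKM), Nr0b1 (42.7 ± 0.844 RPKM), Tbx3 (39.3 ± 0.844 RPKM), Nr5a2 (21.6 ± 0.121 RPKM), Tcl1 (14.4 ± 2.27 RPKM) and Prdm14 (5.33 ± 0.656 RPKM). No neighbours in this order overlapped between their libraries. At 100 nM the order differed in 3 ways. Zfp42 stood above Fgf4, Nr5a2 stood above Tbx3 and level with Nr0b1, whose libraries it overlapped, and Tcl1 was the lowest of the 10, at 1.79 ± 0.578 RPKM.

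Among the transcription factors, Tfcp2l1 (chr1:118627945-118685168 on mm10, the build of the counts), a target of LIF-STAT3 signalling that sustains self-renewal, fell and had the smallest standard errors of the 10. Its RPKM was 129 and 131 without dTAG13, 128 and 126 with 0.3 nM, 112 and 113 with 1 nM, 102 and 101 with 3 nM, 88.1 and 91.7 with 10 nM, and 82.2 and 84.2 with 100 nM. No 2 doses overlapped. The log2 fold change against 0 nM was -0.04 at 0.3 nM (adjusted p = 0.932), -0.21 ± 0.048 at 1 nM (SE; adjusted p = 0.0163), -0.36 at 3 nM (adjusted p = 9.95e-06), -0.53 at 10 nM (adjusted p = 9.23e-09) and -0.64 ± 0.048 at 100 nM (SE; adjusted p = 1.4e-10). At 1 nM it was the 1 gene of the 10 that passed the test, where 1.52% of all genes were lower and 0.773% higher, and 0 of the 10 were DEGs against 0.729% lower and 0.185% higher. This call at 1 nM rests on both libraries of each condition: the adjusted p was 0.088 to 0.167 when any 1 of the 4 was left out. It was also 0.0634 with the likelihood ratio test, which the study names, and 0.268 without normalization factors. The DEG call at 100 nM, a 1.56-fold loss, is near the 1.5-fold limit, and held with log2 fold changes of -0.72 to -0.59 over 15 alternatives.

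Tbx3 (chr5:119670862-119684724), a T-box factor that supports self-renewal, had 39.9 and 38.8 RPKM without dTAG13, 40.7 and 38.2 with 0.3 nM, 35.5 and 34.3 with 1 nM, 32.5 and 32.3 with 3 nM, 30.7 and 29.7 with 10 nM, and 21.5 and 24.5 with 100 nM. The levels at 0 and 0.3 nM overlapped, and each higher dose lay below the one before it. Its log2 fold change was -0.28 ± 0.071 at 3 nM (SE; adjusted p = 0.0117), -0.38 ± 0.071 at 10 nM (SE; adjusted p = 0.000333) and -0.77 ± 0.072 at 100 nM (SE; adjusted p = 8.86e-09). At 3 nM the adjusted p was 0.0945 without the first 0 nM library, 0.0577 without the second 3 nM library and 0.152 without normalization factors. The noncoding Tbx3os2, on the other strand and 364 bp beyond the end of Tbx3, had 0.485 RPKM without and 1.21 RPKM with 100 nM dTAG13, and does not overlap Tbx3. The study picked Tbx3 and Tcl1 from these libraries, so their fall is not independent evidence of a direction.

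Nr5a2 (chr1:136843584-136960448), a nuclear receptor that can bind the Pou5f1 regulatory region, was the 1 gene of the 10 that rose. Its RPKM was 21.5 and 21.7 without dTAG13, 21.6 and 19.4 with 0.3 nM, 21.2 and 22.7 with 1 nM, 22.8 and 27.5 with 3 nM, 34.0 and 36.2 with 10 nM, and 35.1 and 35.8 with 100 nM. The libraries of 10 and 100 nM overlapped each other and lay above all others. The log2 fold change against 0 nM was 0.02 at 1 nM (adjusted p = 0.946), 0.22 at 3 nM (adjusted p = 0.129, and 0.0238 without the first 3 nM library), 0.70 ± 0.086 at 10 nM (SE; adjusted p = 1.33e-06) and 0.72 ± 0.086 at 100 nM (SE; adjusted p = 4.81e-07). At 10 nM it was the 1 higher DEG among the 10 genes, where 3.01% of all genes were higher.

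Nr0b1 (chrX:86191775-86195946), whose product is a nuclear receptor without the usual DNA-binding domain and acts as a corepressor, kept 41.8 to 45.0 RPKM in the 8 libraries up to 3 nM. It had 40.2 and 40.7 RPKM with 10 nM, and 38.2 and 32.4 with 100 nM. The 100 nM libraries lay below all others, with a log2 fold change of -0.27 ± 0.089 (SE; adjusted p = 0.0292). This call was not stable, with an adjusted p of 0.343 without the second 100 nM library, 0.134 without the first 0 nM library, 0.0813 without the second, 0.0999 with DESeq2's Wald test and 0.161 without normalization factors. Prdm14 (chr1:13113428-13127163), a PR-domain factor that keeps FGF receptor and DNA methyltransferase genes low in naive cells, had 52 to 97 counts per library. Its mean was 5.33 ± 0.656 RPKM without dTAG13, 3.997 ± 0.0619 with 3 nM, 4.07 ± 0.516 with 10 nM and 5.87 ± 0.257 with 100 nM. The 4 libraries of 3 and 10 nM were the lowest, yet no comparison of Prdm14 passed the test, with the lowest adjusted p at 0.17 for 100 nM against 10 nM (log2 fold change 0.53, 95% interval 0.15 to 0.91).

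Zfp42 (chr8:43295067-43307009), the zinc finger gene also called Rex1 and widely used as a naive reporter, had 60.5 and 70.5 RPKM without dTAG13, 79.0 and 71.7 with 10 nM, and 71.3 and 70.7 with 100 nM. The range of its 12 libraries was 60.5 to 79.0 RPKM, and 0 nM spanned much of it. The log2 fold change was 0.20 at 10 nM (adjusted p = 0.0931, and 0.0427 without the second 0 nM library) and 0.12 at 100 nM (95% interval -0.05 to 0.29, adjusted p = 0.318). That interval leaves out a loss of the size seen for Tfcp2l1 or Tbx3.

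Of the signalling genes, Fgf4 (chr7:144861386-144865243), the FGF ligand that mES cells secrete and whose ERK signal favours exit from the naive state, had 84.6 and 82.8 RPKM without dTAG13, 76.5 and 74.6 with 0.3 nM, 75.5 and 76.9 with 1 nM, 79.0 and 82.3 with 3 nM, 73.7 and 83.1 with 10 nM, and 55.9 and 59.9 with 100 nM. The 100 nM libraries were below all others, while those of 10 and 0 nM overlapped. Fgf4 fell at 100 nM by 0.52 ± 0.066 on the log2 scale (SE; adjusted p = 1.09e-06). Over 15 alternatives the log2 fold change at 100 nM was -0.61 to -0.48, which spans the 1.5-fold limit of a DEG. At the 4 lower doses its log2 fold change was -0.15 to -0.05, with adjusted p of 0.364 to 0.711. At 0.3 nM Fgf4 was the 1 gene with an unadjusted p under 0.05 (0.0322, adjusted 0.622) and none of the 10 was called, against 0.0176% of all genes lower and 0.00% higher as DEGs (0.0703% lower by adjusted p).

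Tcl1 (chr12:105216755-105222737), a coactivator of AKT kinase, was the gene with the deepest loss at every dose from 1 nM. It had 154 and 130 counts without dTAG13, 136 and 124 with 0.3 nM, 95 and 88 with 1 nM, 67 and 81 with 3 nM, 30 and 40 with 10 nM, and 22 and 14 with 100 nM. That is 16.02 and 12.8 RPKM without dTAG13, 9.69 and 8.88 with 1 nM, 8.23 and 8.72 with 3 nM, 3.00 and 4.18 with 10 nM, and 2.20 and 1.38 with 100 nM. The 0 and 0.3 nM libraries overlapped and the other doses lay in order below them. The log2 fold change against 0 nM was -0.63 ± 0.17 at 1 nM (SE; adjusted p = 0.0527), -0.76 ± 0.18 at 3 nM (SE; adjusted p = 0.00682), -2.002 ± 0.21 at 10 nM (SE; adjusted p = 7.96e-08) and -2.995 ± 0.23 at 100 nM (SE; adjusted p = 2.92e-10). At 3 nM it was the 1 DEG of the 10, against 2.38% of all genes lower and 1.52% higher, and with Tfcp2l1, Tbx3 and Dppa5a 1 of 4 that fell, against 5.25% lower and 4.15% higher by adjusted p. Without the first 0 nM library the adjusted p at 3 nM was 0.122. At 1 nM the adjusted p ran from 0.0165 to 0.415 and fell under 0.05 with the likelihood ratio test, without the filter, with factors over all genes and in the fit of only the 0 and 1 nM libraries. At 10 nM it was again the 1 lower DEG, against 4.92%, and by adjusted p 4 genes were lower and 1 higher, against 10.1% and 7.87%.

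Dppa5a (chr9:78367054-78368199), which encodes a KH-domain RNA-binding protein and was the most abundant of the 10, had 802 and 784 RPKM without dTAG13, 770 and 795 with 0.3 nM, 701 and 712 with 1 nM, 679 and 629 with 3 nM, 591 and 536 with 10 nM, and 566 and 563 with 100 nM. The 10 and 100 nM libraries overlapped. Its log2 fold change was -0.28 ± 0.058 at 3 nM (SE; adjusted p = 0.00229), -0.49 ± 0.058 at 10 nM (SE; adjusted p = 7.23e-07) and -0.48 ± 0.058 at 100 nM (SE; adjusted p = 4.51e-07). Without normalization factors the adjusted p at 3 nM was 0.107. Dppa3 (chr6:122626424-122630271), also called Stella, whose product protects maternal DNA methylation, was measured with 9 to 32 counts per library. It had 3.13 and 3.95 RPKM without dTAG13 and 5.61 and 5.34 with 100 nM, a log2 fold change of 0.63 (95% interval -0.13 to 1.38, adjusted p = 0.238), and a change of that size was not detectable at this depth. Both genes have near-identical copies elsewhere in the genome, and since multi-mapped pairs were left out their levels are uncertain.

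**Figure D2:**
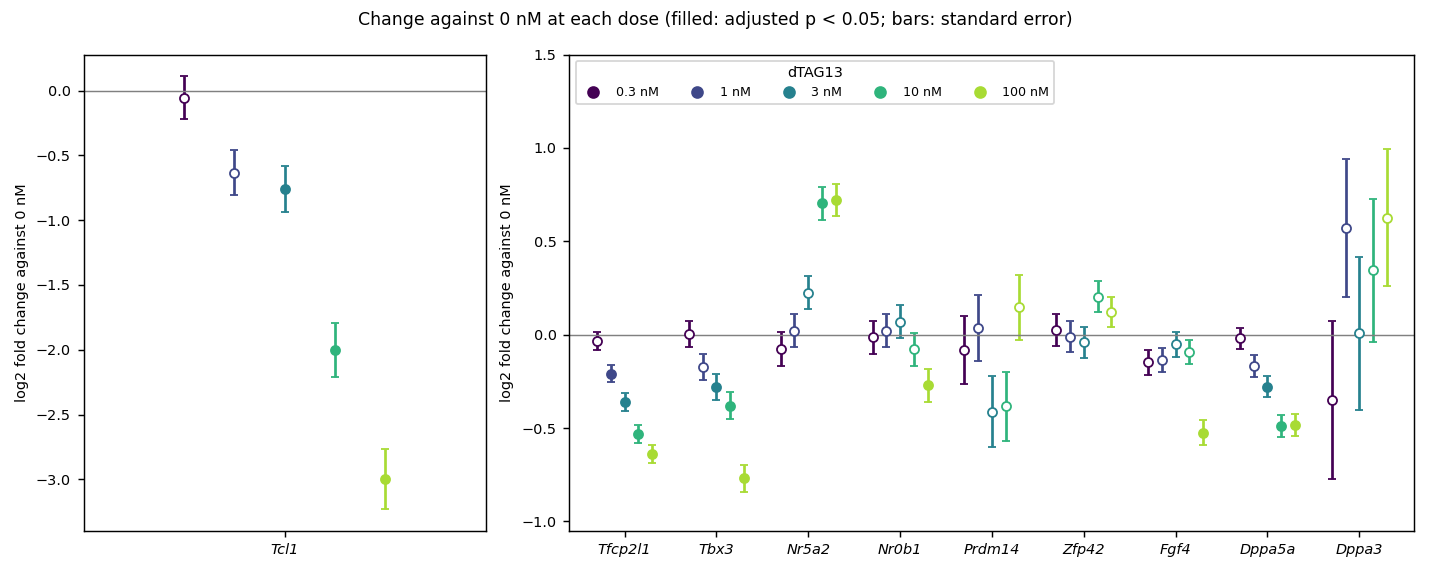
Log2 fold change against 0 nM (y axis, Tcl1 on its own scale) of the 10 naive genes at 5 doses of dTAG13 (colours), with standard errors and filled points where the adjusted p was under 0.05. Tcl1 reaches -2.995 and Nr5a2 0.72 at 100 nM, and 0 of the 10 genes is filled at 0.3 nM. All 5 doses share the 2 control libraries.

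The 5 comparisons above share their control libraries, so the doses were also compared with each other within one run of library numbers. For 3 nM against 0.3 nM, 4 of the 10 genes fell, 1 of them as a DEG (Tcl1, log2 fold change -0.71 ± 0.18 SE, adjusted p = 0.0202), against 1.20% of all genes lower and 0.747% higher as DEGs. The others were Tfcp2l1 (-0.33), Tbx3 (-0.28) and Dppa5a (-0.26), where 2.88% of all genes fell and 2.43% rose. Without any 1 of the 4 libraries the adjusted p of Tcl1 was 0.06 to 0.182, and with DESeq2's Wald test it was 0.087. The call of Tbx3 was lost without the first 0.3 nM library (adjusted p = 0.2), either 3 nM library (0.0624 and 0.086) or the normalization factors (0.167), and that of Dppa5a without the second 0.3 nM library (0.0803), the second 3 nM library (0.104) or the factors (0.176). All genes split 136 lower to 85 higher here, 98 to 98 without normalization factors and 180 to 68 with factors over all genes.

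For 10 nM against 1 nM, Tcl1 was a lower DEG (log2 fold change -1.37 ± 0.22 SE, adjusted p = 0.000172) and Nr5a2 a higher one (0.68 ± 0.086 SE, adjusted p = 7.13e-06), against 1.73% and 0.809% of all genes. Tfcp2l1 and Dppa5a fell by 0.32 each on the log2 scale (3.72% of all genes fell and 2.55% rose), and Tbx3 had a log2 fold change of -0.21 (adjusted p = 0.0928). Without normalization factors the adjusted p of Tfcp2l1 was 0.0691 and that of Dppa5a 0.074, and that of Tbx3 was 0.0482 without the filter and 0.0399 with factors over all genes. All genes split 197 lower to 92 higher, and 148 to 125 without normalization factors. For 100 nM against 10 nM, 0 of the 10 were DEGs, against 0.791% lower and 0.193% higher, and 6 had an unadjusted p under 0.05. Fgf4 (log2 fold change -0.43 ± 0.067 SE, adjusted p = 0.000242) and Tbx3 (-0.39 ± 0.073 SE, adjusted p = 0.00256) fell, where 1.76% of all genes did and 0.615% rose. The adjusted p of Tbx3 was 0.135 without the first 100 nM library. Tcl1 had a log2 fold change of -0.99 (adjusted p = 0.0924, and 0.0486 with the likelihood ratio test).

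**Figure D3:**
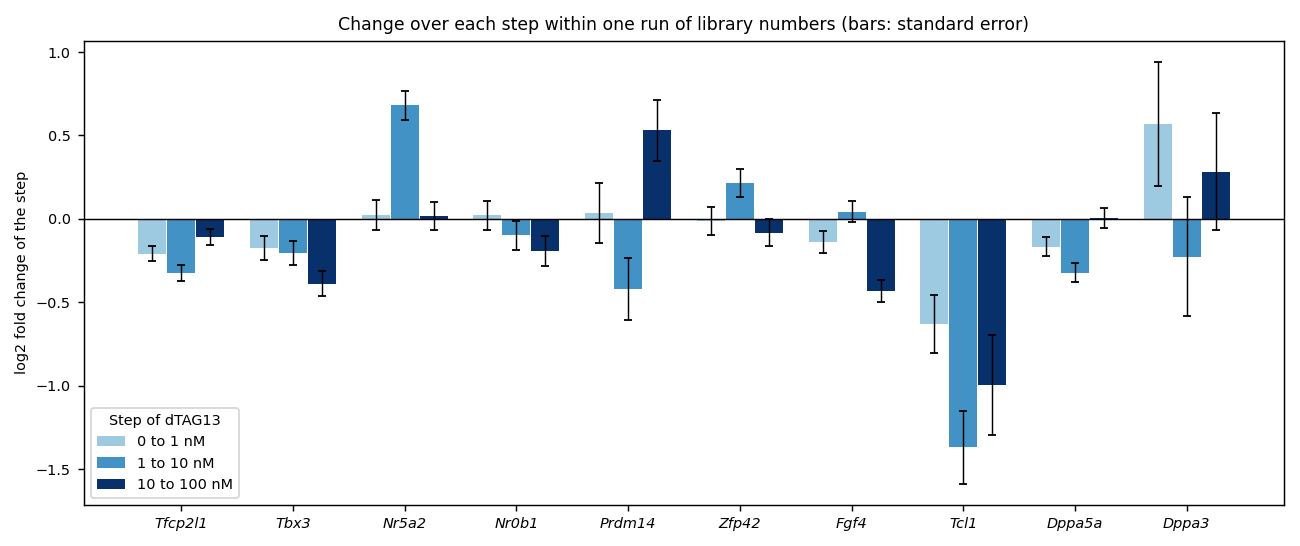
Log2 fold change (y axis) of the 10 naive genes over the steps from 0 to 1, 1 to 10 and 10 to 100 nM dTAG13 (3 bars per gene, from 0, with standard errors), all within one run of library numbers. Nr5a2 has a step of 0.68 from 1 to 10 nM beside 0.02 before and after it, and the largest step of Fgf4, -0.43, is the last.

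The largest step was from 1 to 10 nM for Nr5a2 (0.68) and from 10 to 100 nM for Fgf4 (-0.43), while Dppa5a had a step of 0.01 after 10 nM, and steps were not compared between genes. By the study's blots most BRG1 protein was already gone at 10 nM, so these steps of dose are not equal steps of BRG1. A test of the last step minus the one before it, added after the values were seen, passed for 1 of the 10 genes, against 0.281% of all genes lower and 0.0352% higher. It was Nr5a2, at -0.66 ± 0.15 (SE; adjusted p = 0.0427), and its adjusted p was over 0.05 in 8 of 17 alternatives, up to 0.536 without the second 10 nM library. Fgf4 had a difference of -0.48 (adjusted p = 0.0722, and 0.0126 without the first 10 nM library), and Dppa5a one of 0.33 (adjusted p = 0.239, and 0.0497 without the first 10 nM library).

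Genes with the most similar pattern were found by Pearson's r of log2(RPKM + 0.1) over the 12 libraries, which share their depth and dose order, and are given as a description. For Tcl1 they were Rab38 (r = 0.983), Hspb8 (0.982) and Mitf (0.981), which changed by -1.91, -2.67 and -2.22 on the log2 scale at 100 nM. For Tfcp2l1 they were Nqo1 (r = 0.994), Ptrf (0.991) and Tle3 (0.988), and for Tbx3 Lpin1 (r = 0.981), Pdhb (0.976) and Sfrp1 (0.976). Among the genes most like Nr5a2 were Tiparp (r = 0.969) and Gja1 (0.961), which changed by 0.90 and 0.54 on the log2 scale at 100 nM.

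Neighbours within 100 kb were read for each of the 10 genes. Of 14 tested neighbours of 5 of the genes, 0 were lower and 1 higher as DEGs at 100 nM (6.83% and 4.37% of all genes), and by adjusted p 2 were lower and 3 higher (13.3% and 10.1% of all genes). Beside Dppa3, Gdf3 (a TGF-beta family ligand, 16.4 kb away) went from 45.1 to 31.7 RPKM and fell by 0.50 ± 0.086 on the log2 scale (SE; adjusted p = 7.53e-05). On the other side of Dppa3, Nanog (77.2 kb away) went from 228 to 326 RPKM and rose by 0.52 ± 0.051 (SE; adjusted p = 1.79e-08), and the glucose transporter gene Slc2a3 (97.5 kb away) rose by 0.23. Beside Dppa5a, the oocyte gene Ooep (8.7 kb away) fell by 0.42 (adjusted p = 0.0454) and the helicase gene Ddx43 (27.6 kb away), the 1 DEG, rose by 0.67 (adjusted p = 0.0141). The 5 Tcl1b genes beside Tcl1 were at 0 to 0.395 RPKM at 0 nM and at 0.0812 to 0.545 RPKM at 100 nM. Of the neighbours of Fgf4, Ccnd1 had a log2 fold change of 0.17 (adjusted p = 0.0718).

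**Figure D4:**
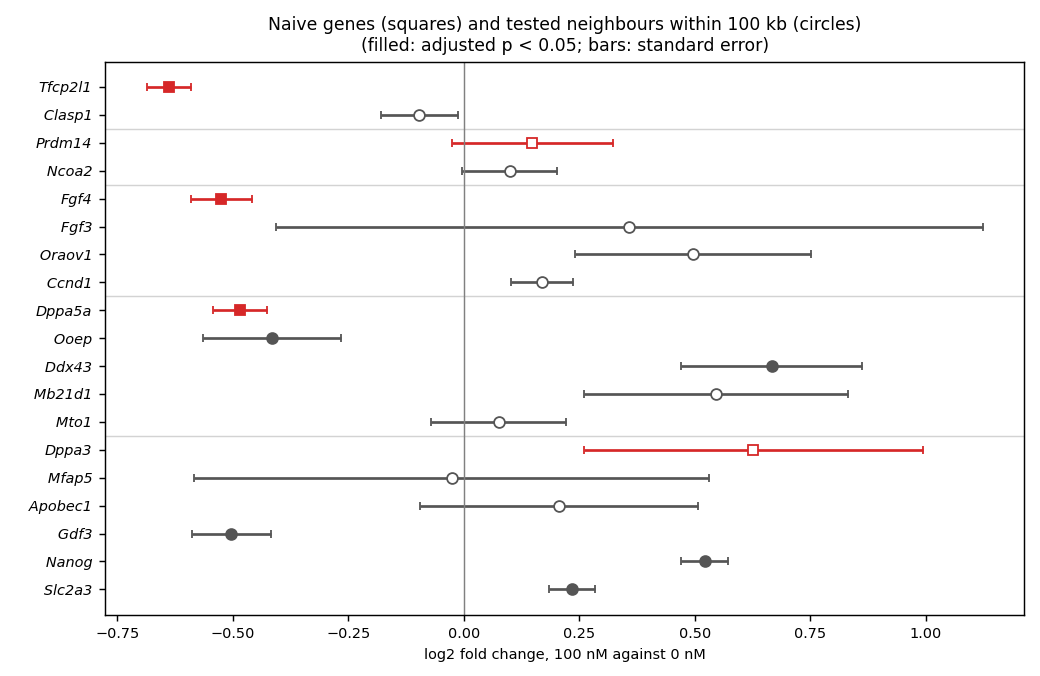
Log2 fold change at 100 nM against 0 nM (x axis, with standard errors) of 5 naive genes (squares) and their tested neighbours within 100 kb (circles), grouped by naive gene and filled where the adjusted p was under 0.05. Gdf3 at -0.50 and Nanog at 0.52 lie on the 2 sides of 0 and flank Dppa3.

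A list of 31 other pluripotency genes, all tested, held more genes that rose than fell. At 100 nM, 3 were lower and 2 higher as DEGs (6.83% and 4.37% of all genes), and by adjusted p 8 were lower and 16 higher (13.3% and 10.1% of all genes), with a median log2 fold change of 0.19. The lower DEGs were Pecam1, an adhesion molecule on undifferentiated cells (13.1 ± 1.24 to 3.01 ± 0.477 RPKM, log2 fold change -2.11), the RNA-binding Lin28a (-0.64) and the 5-methylcytosine dioxygenase gene Tet1 (-0.60). The higher ones were Dppa2, a chromatin-bound factor (34.6 ± 2.01 to 68.4 ± 5.61 RPKM, 0.99), and the Ras gene Eras (0.97). Of the core genes on this list, Pou5f1 and Esrrb fell, each with a log2 fold change of -0.17 (adjusted p = 0.0301 and 0.0433). Nanog rose by 0.52, and Sox2 had a log2 fold change of 0.19 (adjusted p = 0.0599). In the fits that leave out 1 library, the number of higher DEGs was 1 without the first 0 nM library, 4 without the second and 1 without the second 100 nM library. The difference between the lists was not tested, since the members of both were chosen with results known.

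Of 18 genes of the FGF pathway around Fgf4, 11 passed the filter, and at 100 nM 0 were lower and 1 higher as DEGs (6.83% and 4.37% of all genes), while by adjusted p 0 were lower and 4 higher (13.3% and 10.1% of all genes), with a median log2 fold change of 0.16. MEK, which carries the FGF signal, is inhibited in this medium in every group. The DEG was the ligand gene Fgf17, at 11.4 ± 0.890 RPKM at 0 nM and 17.95 ± 1.88 at 100 nM (log2 fold change 0.66 ± 0.15 SE, adjusted p = 0.00138). Among the downstream genes, the ERK target Etv5 rose by 0.54 and the feedback inhibitors Spry4 and Spry2 by 0.46 and 0.42. Other downstream genes did not rise: Etv4 went from 58.8 to 55.7 RPKM, Dusp6 from 18.9 to 20.9 and Egr1 from 0.377 to 0.397. The receptor gene Fgfr1, at 25.9 RPKM without dTAG13, had a log2 fold change of 0.09 (adjusted p = 0.387). Fgfr2 and Fgfr3 were under the filter, at 0.202 and 0.248 RPKM without dTAG13 and 0.717 and 0.721 RPKM at 100 nM. In the fit of all 23204 genes with a count they had adjusted p of 0.0108 and 0.0252. Without the second 100 nM library the count of higher DEGs was 0.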

How the data were processed

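RNA-seq of 12 libraries was analysed, 2 for each of 6 doses of dTAG13. The authors deposited raw counts of read pairs per gene, made with Trim Galore, HISAT2 on mm10 and featureCounts 2.0.1 over exons. Counting required both ends of a pair to align, skipped multi-mapped pairs and ignored strand, so a gene and an antisense partner cannot be told apart. No normalization was applied before deposit. The kit carries no molecular identifiers, so precision is limited by counting and by 2 libraries per condition. The study describes its plotted expression values as coming from 2 independent experiments. The labels number the libraries but do not tie them to cultures, so p-values measure a spread that may be in part technical.

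Conditions came from the sample titles. RPKM was computed with TMM factors (0.947 to 1.06). Tests covered the 11378 genes whose mean reached 1 RPKM, with edgeR 4.0.16 (R 4.3.3, limma 3.58.1), all 6 conditions in one quasi-likelihood fit (biological coefficient of variation 6.20%), with Benjamini-Hochberg adjustment over all genes tested. Each dose was compared with 0 nM, and 3 with 0.3, 10 with 1 and 100 with 10 nM. DEGs passed an adjusted p of 0.05 and 1.5-fold. Alternatives were the likelihood ratio test named by the study, DESeq2 1.42.0, other normalizations, no filter, a replicate block, fewer conditions, no fold-change minimum, library sizes without abundant structural RNA and each library left out in turn. Factors over all genes and the difference between steps were added after values were seen. The fit was tested on simulated data. No 2 libraries were identical, and replicates differed by more than counting noise (chi-square per degree of freedom 2.03 to 18.0). This chi-square covered all genes tested, without TMM factors. It includes the abundant structural RNA Rn45s, which held 10.5 to 19.4% of the counts of a library, so part of it can come from that gene.

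All 10 genes are named. Of a list, the 3 lower and 3 higher DEGs with the largest change at 100 nM and genes whose role the text turns on are named. Similar patterns are the 3 highest r for each DEG at 100 nM, of which 1 gene is not reported here, and neighbours lie within 100 kb. Promoter sequences are RefSeq's on GRCm38.p6, the genome of mm10. The members and the lists were chosen with earlier results of these data known.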

Additional observations from a re-analysis of the deposited data

How the results depend on the processing

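No called value changed direction. Of the alternative values of single genes, 1286 kept their side of the threshold, 39 lost significance and 15 gained it. With no fold-change minimum, the counts of lower naive genes were 1 (1 nM), 4 (3 nM), 4 (10 nM) and 6 (100 nM), 4 for 3 nM against 0.3 nM, 3 for 10 nM against 1 nM and 2 for 100 nM against 10 nM. With it they were 0, 1, 1, 3, 1, 1 and 0. The wider pluripotency list then had 8 lower and 16 higher genes (3 and 2 with the minimum) and the FGF list 4 higher (1). At 1 nM the count of lower naive genes was 1 with the likelihood ratio test, without the filter, with factors over all genes and in the fit of only the conditions compared (Tcl1). For 100 nM against 10 nM it was 1 with the likelihood ratio test and without the filter, and for 3 nM against 0.3 nM it was 0 with DESeq2's Wald test. The FGF list had 2 higher DEGs without the filter and 0 with factors over all genes.

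Leaving out 1 library in turn gave 0 to 1 lower naive genes at 3 nM (0 without the first 0 nM library) and 0 in each case for 3 nM against 0.3 nM. It gave 1 to 4 higher genes of the wider list and 0 to 1 of the FGF list. Libraries with the same replicate number did not deviate together (correlations -0.095 to 0.093 over 15 pairs of conditions, 0 over 0.1). No pairing by number was thus seen, but noise also enters these deviations and a weak pairing could be missed. A replicate block changed 1 of 90 results, the difference between steps of Nr5a2 (adjusted p = 0.0532). The cause of these changes was not tested. Depth limits Dppa3 and Prdm14, and TMM would not show a shift common to most genes.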

Other observations

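Dppa3 and Prdm14 also mark primordial germ cells, in which a part of the naive program is used again, and 7 further germ cell genes were read in the same libraries. Of these, 6 passed the filter, and at 100 nM 1 was lower and 2 higher as DEGs (6.83% and 4.37% of all genes), and by adjusted p 1 was lower and 3 higher (13.3% and 10.1% of all genes). The RNA helicase gene Ddx4, a germ cell marker, went from 10.4 ± 1.14 to 18.04 ± 0.766 RPKM (SD, n = 2 each, log2 fold change 0.80 ± 0.12 SE, adjusted p = 1.33e-05), and the factor gene Tfap2c from 3.36 ± 0.358 to 5.41 ± 1.00 RPKM (0.69, adjusted p = 0.0109). Dazl, which encodes a germ cell RNA-binding protein, rose by 0.53. The receptor gene Kit went from 12.01 ± 1.00 to 3.35 ± 0.392 RPKM (log2 fold change -1.84 ± 0.14 SE, adjusted p = 2.86e-10). At lower levels, Prdm1 went from 1.05 ± 0.0953 to 0.235 ± 0.0685 RPKM, Nanos3 from 1.59 to 1.78 and Dnd1 from 4.29 to 3.60. The summed level of the 7 genes was 41.1 and 42.5 RPKM at 0 nM and 42.2 and 48.7 RPKM at 100 nM, so the libraries overlapped.

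Of 9 formative and primed genes, 6 passed the filter, with 0 lower and 2 higher as DEGs at 100 nM (6.83% and 4.37% of all genes), and 1 lower and 3 higher by adjusted p (13.3% and 10.1%). The DEGs were the WNT-pathway factor gene Lef1, from 2.97 ± 0.0779 to 8.41 ± 0.329 RPKM, and the zinc finger gene Zic2, from 7.79 ± 1.09 to 13.04 ± 0.852 RPKM. By adjusted p, the DNA methyltransferase gene Dnmt3b rose by 0.34 on the log2 scale, whereas Dnmt3a went from 8.997 to 6.07 RPKM and fell by 0.56. Fgf5, the usual marker of the formative state, was at 0 RPKM without dTAG13 and 0.0327 RPKM at 100 nM. Otx2 went from 0.094 to 0.273 RPKM, Pou3f1 from 1.55 to 1.62, Sox3 from 0.607 to 0.355 and T from 5.01 to 6.97. Of 8 trophectoderm genes, Cdx2 went from 0.549 to 4.71 RPKM and Krt8 from 9.05 to 2.21 RPKM.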
